A study of Mus musculus with 55 samples.

Results

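Genes that lie in segments known to be duplicated in some inbred mouse strains were chosen by symbol from the liver expression tables, 7 of 37620 genes in all. They were Glo1, Btbd9 and Glp1r, which neighbour each other on chromosome 17, Alad and Hdhd3 on chromosome 4, Ide on chromosome 19 and Entpd4 on chromosome 14. The livers came from 55 untreated male mice of 29 Collaborative Cross lines, inbred lines that each mix the genomes of 8 founder strains, housed at Tel-Aviv University. The mice were 8 to 11.9 weeks old and weighed 12.8 to 38 g. There was 1 mouse for 8 of the lines, 2 mice for 16 lines and 3 mice for 5 lines. There was no treated or control group, so each comparison was between lines. Founder haplotypes and DNA copy number at these segments were not analysed here, and their part in the results was not tested.

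A segment that is present in extra copies adds templates for every gene that lies whole within it, and a gene cut by the edge of such a segment contributes only the exons inside. GLO1 and HAGH together turn methylglyoxal, a reactive by-product of glycolysis, into D-lactate. ALAD joins 2 molecules of 5-aminolevulinate in the second step of haem synthesis, which is active in hepatocytes because cytochromes P450 need haem. IDE is the metalloprotease that degrades insulin, ENTPD4 is a nucleoside diphosphatase of the Golgi and lysosomes, GLP1R is the receptor for glucagon-like peptide 1, and BTBD9 is a BTB domain protein tied to iron handling. HDHD3 belongs to the haloacid dehalogenase-like phosphatases.

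Each library held 20.5 to 34.0 M estimated fragments assigned to genes, and the hepatocyte markers Alb, Apoa1, Ttr, Tat, Cyp2e1 and Cps1 summed to 17568 to 67817 FPKM (fragments scaled for transcript length and library size). All 6 of these markers had a median of at least 1 FPKM. In whole liver, fewer cells of a type and less RNA per cell cannot be told apart. The mice labelled IL-1052 and IL-2750 were intermixed. By Spearman correlation over the expressed genes, the nearest mouse was a line mate for 41 of 42 mice of the other lines with line mates but for 0 of the 5 mice of this pair, whose nearest mouse always carried the other label of the pair. Results that moved without these lines are given with and without them. Leaving out replicate 1 or 2 leaves the 16 lines with 2 mice at 1 mouse each. The within-line spread then rests on the 5 lines with 3 mice, among them IL-2750. Line mates are separate animals. The F test below sets differences between lines against the spread of line mates, and the permutation tests of correlations shuffle line means.

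Of the 7 members 6 were expressed, and Glo1 and Btbd9 alone among them were called two-level on FPKM. A gene was called two-level when the widest gap between ordered line means of log2(FPKM + 1), with at least 3 lines on each side, was at least 2 within-line SDs and no line had mice on both sides of its middle. By this rule 2 of 6 expressed members were called, beside 319 of 11284 genes with a maximum of at least 2 FPKM (2.83%). Neither call held on CPM, and a mixture fit did not prefer 2 levels for Glo1, as given below. The same 6 lines lay above the gap for both genes, and no other gene among the 319 split the lines in this way. All 6 expressed members passed the edgeR quasi-likelihood F test for differences among the 21 lines with at least 2 mice, but 88.5% of the 15285 genes tested did so too. The intraclass correlation, the share of variance that lies between lines, was above the median of all expressed genes (0.555) for 6 of 6 members. Alad was barely above it (0.564), and without replicate 1 of each line only 1 of the 6 members was above the median.

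Glo1 (ENSMUSG00000024026, chr17:30729811-30749604, minus strand, NCBIM37) ranged from 108 to 844 FPKM over the mice, with a median of 289.5 FPKM. The mice of the 6 upper lines had 642 and 807 FPKM in IL-2011, 844 and 627 FPKM in IL-3438, 762 FPKM in IL-4032, 729.6 and 812 FPKM in IL-3348, 746 and 817 FPKM in IL-3912 and 811 FPKM in IL-2693. The other 45 mice ran from 108 to 494 FPKM. That these 10 mice do not overlap with them follows from the two-level rule. The highest value below the gap belonged to the only mouse of IL-4141.

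Below the gap the Glo1 line means formed a gradient. IL-785 (116 ± 9.83 FPKM, SD, n = 3) and IL-1452 (122 FPKM, 1 mouse) were lowest, and IL-519 followed at 177 ± 3.48 FPKM (SD, n = 2). Another 19 lines lay between 190.1 and 397 FPKM, among them IL-611 (288 ± 18.2, SD, n = 3), IL-4052 (359 ± 21.7, SD, n = 2) and IL-670 (397 ± 33.0, SD, n = 3). Only 3 of the 28 steps between neighbours in this order were wider than 1 within-line SD (0.22 on the log2 scale), so most neighbouring lines did not differ beyond their spread. The step from IL-4141 to IL-2011 measured 2.51 within-line SDs, a 1.46-fold change, and the second widest, from IL-1452 to IL-519 at the low end, measured 2.50 but leaves only 2 lines below it. The highest line mean was 7.02 times the lowest. The F test gave an adjusted p of 1.96e-11 (edgeR, Benjamini-Hochberg) and the intraclass correlation of 0.847 lay at the 97.7th percentile of expressed genes. A mixture of 2 normal distributions was not preferred over 1 for the Glo1 line means (BIC difference -1.6).

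**Figure D1:**
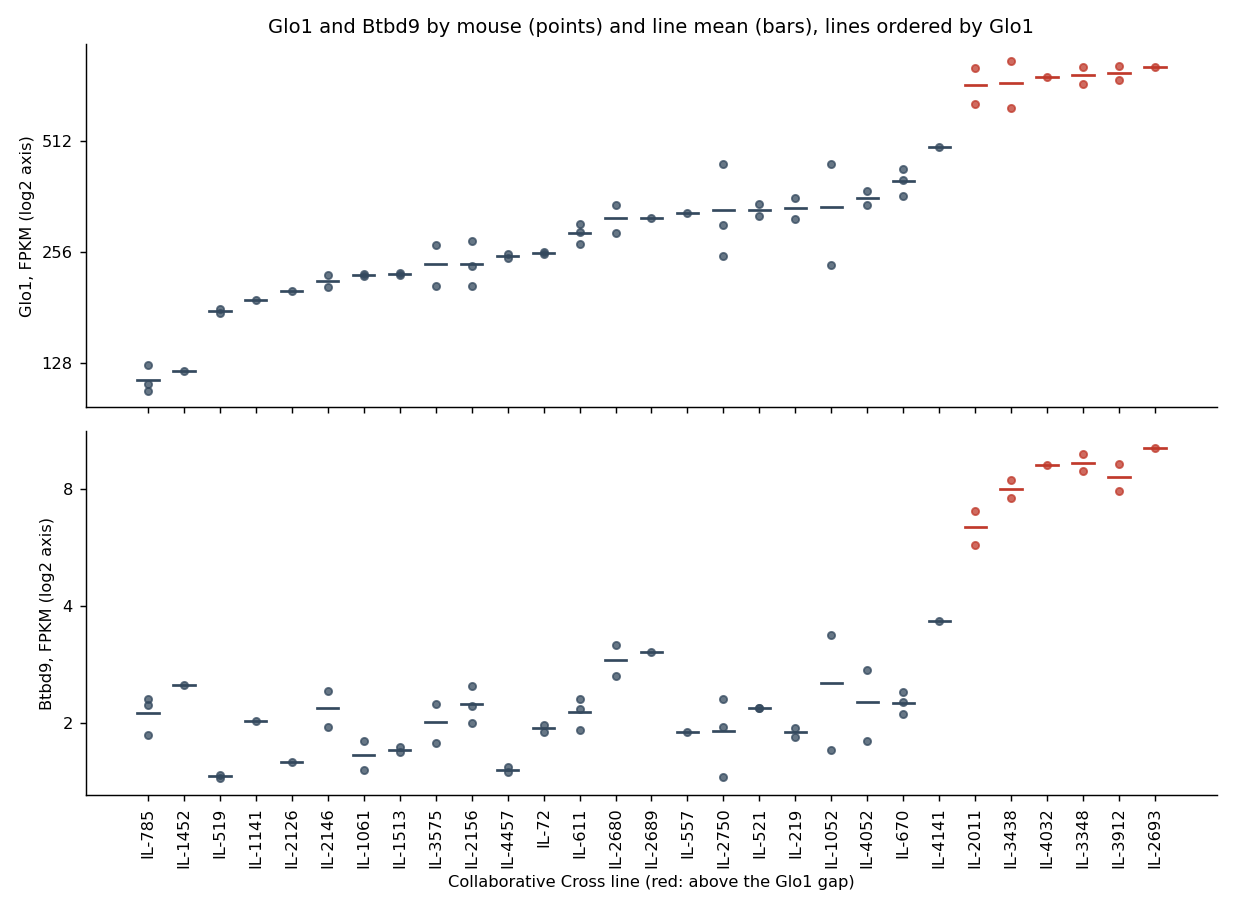
FPKM of Glo1 (upper panel) and Btbd9 (lower panel) on log2 axes, with each point a mouse, each bar a line mean and the 29 lines ordered by Glo1. The 10 mice of the 6 lines in red lie above every other mouse for both genes, which the two-level rule requires. IL-4141 is the highest of the other lines.

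Btbd9 (ENSMUSG00000062202, chr17:30352469-30713394, minus strand) lies next to Glo1, and its full-length transcript begins 16.6 kb from the 3′ end of that gene. It was a low-level transcript, with 1.44 to 10.2 FPKM over the mice and a median of 2.19 FPKM. The upper lines held 5.76 and 7.05 FPKM in IL-2011, 8.44 and 7.59 FPKM in IL-3438, 9.31 and 7.92 FPKM in IL-3912, 9.24 FPKM in IL-4032, 9.84 and 8.91 FPKM in IL-3348 and 10.2 FPKM in IL-2693. All other mice had 1.44 to 3.67 FPKM, and that the 2 sets do not overlap again follows from the two-level rule. IL-4141 was again the highest line below the gap, at 3.67 FPKM. The gap of 4.18 within-line SDs was 1.58-fold on the log2(FPKM + 1) scale, which understates changes at this low level. For the Btbd9 line means 2 components were preferred by a BIC difference of 32.1. The F test gave an adjusted p of 4.16e-10 (edgeR). The intraclass correlation was 0.697, or 0.849 without IL-1052 and IL-2750 and 0.417 without replicate 1 of each line.

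When IL-1052 and IL-2750 were left out, the gap widened to 3.84 within-line SDs for Glo1 and 5.65 for Btbd9, with the same number of lines above. The call depended on the measure. On gene fragments not scaled for library size or transcript length, Glo1 passed, with 6 lines above a gap of 2.88 SDs. On CPM, counts scaled by TMM library sizes with no account of transcript length, the gap fell to 1.46 SDs for Glo1 and 1.69 SDs for Btbd9, and neither passed. On that scale the 10 upper mice still had 981 to 1339 CPM of Glo1 against 217 to 838 CPM elsewhere, and 18.1 to 26.01 CPM of Btbd9 against 10.3 to 17.7 CPM. Without replicate 1 of each line Glo1 also missed the threshold, at 1.22 SDs. The upper and other lines overlapped in age (8.1 to 10 against 8 to 11.9 weeks), body weight (14.8 to 27 against 12.8 to 38 g) and depth (24.8 to 31.8 against 20.5 to 34.0 M fragments). The summed hepatocyte markers of the upper lines (28883 to 58019 FPKM) lay within the range of the others.

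The isoforms of Btbd9 differed in how they followed this split. Of the 5 annotated isoforms, ENSMUST00000168787 and ENSMUST00000079924 are full-length, and ENSMUST00000114635, here called the short isoform, has 1495 bases against 6857 bases for the first of them. The other two, ENSMUST00000114636 and ENSMUST00000167367, took at most 4.4 and 1.2 fragments in any mouse. The short isoform covers 63.4 kb at the 5′ end of the gene, the end that faces Glo1, and 88.5% of its bases are also in ENSMUST00000168787. The first exon of the short isoform, chr17:30713091-30713394, reaches further upstream than that of ENSMUST00000168787, chr17:30713091-30713232. Of the 172 bases that the short isoform does not share, all but 10 lie in this 5′ extension. At the other end the isoforms part after the shared coding exon chr17:30650501-30650620 (NCBIM37, minus strand). The short one continues into a last exon of 10 coding bases at chr17:30649983-30649992, and the long one into an exon of 110 coding bases at chr17:30471168-30471277. The sequences are printed 5′ to 3′ to show how little separates the isoforms at this point, with the shared exon in lower case and the bases after the junction in capitals, all 10 for the short isoform and the first 40 for the long one.
Btbd9 ENSMUST00000114635: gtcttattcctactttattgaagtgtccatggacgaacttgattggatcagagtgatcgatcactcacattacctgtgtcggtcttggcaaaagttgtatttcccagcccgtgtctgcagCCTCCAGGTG
Btbd9 ENSMUST00000168787: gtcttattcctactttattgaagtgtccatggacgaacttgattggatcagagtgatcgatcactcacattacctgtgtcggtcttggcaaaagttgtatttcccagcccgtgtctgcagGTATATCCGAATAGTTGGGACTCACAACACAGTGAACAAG

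The short isoform took 145 to 322 estimated fragments in the 10 upper mice and 0 to 71.7 in all others. Its share of Btbd9 was 66.5 to 78.1% in the former and had a median of 0% in the latter. IL-4141 stood between them, with 71.7 fragments and a share of 53.5%. In 10 of the 23 lines below the gap the short isoform was listed at 0 fragments in every mouse. In the other 13 its mean share was 1% or more. The 2 full-length isoforms together took 344 to 586 fragments in the upper mice and 220 to 554 in the others, and these ranges overlapped.

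The short isoform was two-level by its FPKM, with 6 lines above a gap of 3.82 within-line SDs, but not by its fragments, with 7 lines above a gap of 1.16 SDs. The full-length isoforms together were two-level by neither, with a gap of 0.82 SDs by FPKM and 0.57 SDs by fragments. Fragments here were not scaled for library size. By them the whole gene passed, with 5 lines above a gap of 2.04 SDs, though it did not pass on CPM. Fragments of the whole gene numbered 489 to 908 in the upper mice and 220 to 554 elsewhere, which overlap, while the mean effective transcript length of the gene was 2575 to 3187 bases in the upper mice and 3886 to 6797 bases in the others. FPKM divides fragments by this length, so the sets differed more in Btbd9 FPKM than in fragments. RSEM divides fragments between isoforms that share most bases, and these isoform values are estimates.

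**Figure D2:**
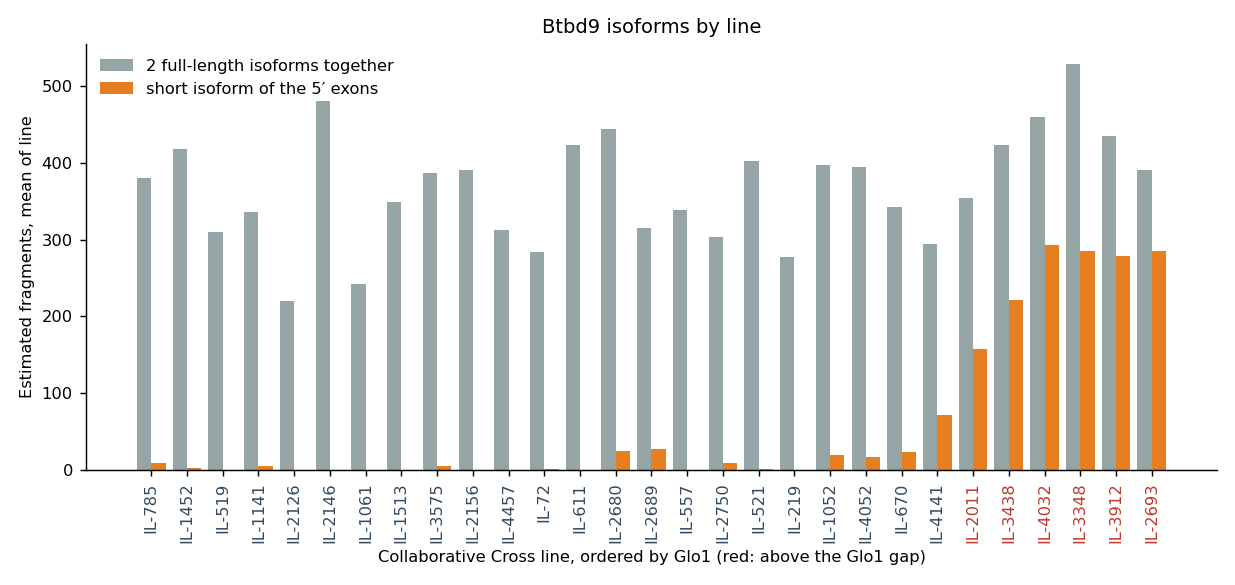
Estimated fragments of the short Btbd9 isoform (orange) and of the 2 full-length isoforms together (grey), as line means with lines ordered by Glo1. The short isoform reaches 157 to 292 fragments in the 6 lines named in red, is at most 71.7 in the others, and the grey bars overlap between the sets.

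The 2 isoforms of Glo1 share 1 coding sequence of 555 bases. The longer, ENSMUST00000024823, took 23794 to 33407 fragments in the upper mice and 4185 to 18730 in the others, and was two-level by FPKM with a gap of 2.34 SDs. The other, ENSMUST00000167624, which has the same ends but lacks a stretch of 1040 bases within the 3′ UTR, had 148 to 241 FPKM in the upper mice and 0 to 164 FPKM elsewhere. It did not pass, with a gap of 1.503 SDs. The intraclass correlation of the isoform share was 0.578 for Glo1 and 0.503 for Btbd9, beside a median of 0.253 over 6650 isoform-ratio traits. For Glo1 it was 0.800 without IL-1052 and IL-2750, and for Btbd9 -0.115 without replicate 2 of each line.

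Glo1 and Btbd9 were also compared within each side of the gap, since a correlation over all lines would rest on the split. Among the 6 upper lines Pearson's r of the line means was 0.864 (exact permutation test, two-sided, p = 0.0139) and Spearman's rho 0.829 (exact permutation p = 0.0583). Among the 23 other lines r was 0.396 (permutation p = 0.0617) and rho 0.379 (permutation p = 0.0757). Neither rank correlation passed 0.05. IL-785 and IL-1452, lowest for Glo1, had 2.13 and 2.51 FPKM of Btbd9 and were not the lowest for that gene. Between line mates, deviations of the 2 genes from their line means had an r of 0.739 over 47 mice, and 0.450 without IL-1052 and IL-2750, given as a description because mates share a line.

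Beyond Glo1 on chromosome 17 lie Dnahc8, an axonemal dynein heavy chain gene, and then Glp1r. Whether a duplicated segment spans Dnahc8 in any of these lines was not tested. Dnahc8 (chr17:30761299-31012209) stayed far under the 2 FPKM filter, but its counts followed the same lines. The 10 upper mice had 38 to 94 fragments with a median of 54, and the other 45 had 4 to 31 with a median of 15. These did not overlap, but Dnahc8 was singled out after its values were seen. The share of all genes whose counts part these mice in this way was not counted. Line means were 0.105 to 0.18 FPKM in the 6 upper lines and 0.01 to 0.065 FPKM in the other 23. The F test for any difference among lines, which 88.5% of all tested genes passed, gave an adjusted p of 2.68e-07 (edgeR). It left out lines with 1 mouse, among them IL-4032 and IL-2693 of the upper lines and IL-4141. IL-4141, intermediate for Btbd9, had 0.04 FPKM of Dnahc8 and was not intermediate here. Further along, the sterol transporter gene Abcg1 overlapped between the sets, at 0.43 to 0.99 and 0.25 to 1.56 FPKM. Dnahc8 is transcribed from the opposite strand to Glo1 and their annotated spans do not overlap.

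Glp1r (ENSMUSG00000024027, chr17:31038785-31073455, plus strand) was at 0 in 48 of 55 mice and at most 0.06 FPKM, or 2 fragments, in the other 7. A count of 0 allows up to 3 fragments, so no difference between lines was detectable at this depth and no test was made. The islet markers Ins1, Ins2 and Gcg summed to at most 0.84 FPKM. Of its family, the glucagon receptor Gcgr was expressed at 48.9 to 117 FPKM, and Glp2r, Gipr and Sctr were at most 0.07 FPKM.

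**Figure D3:**
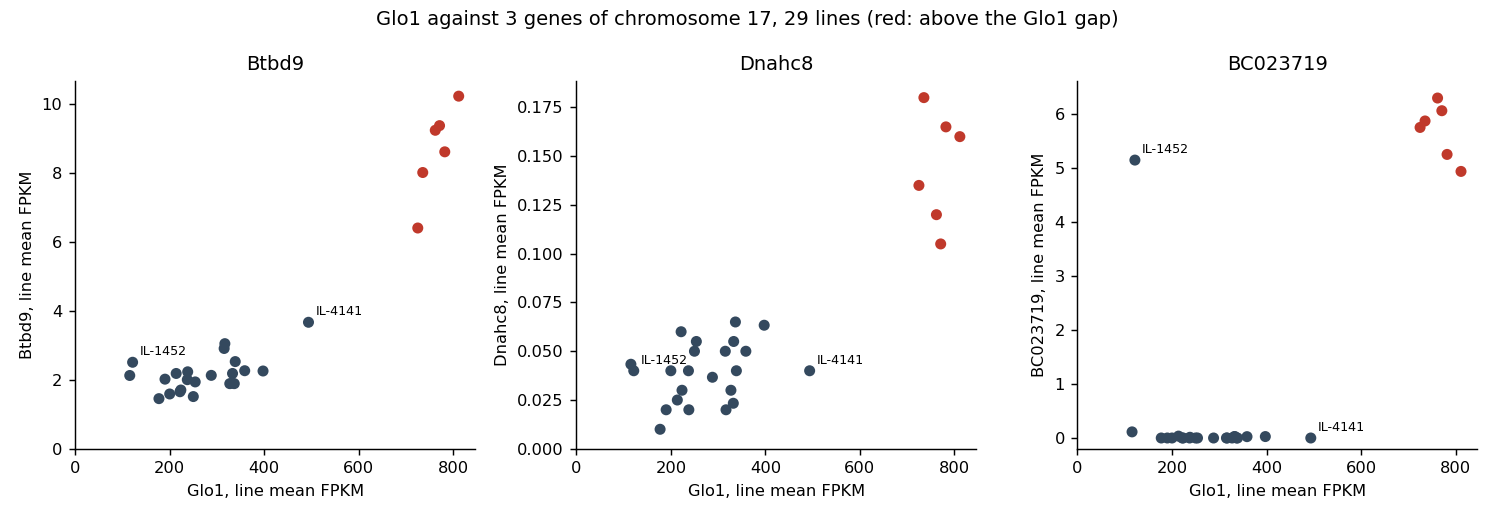
Line mean FPKM of Btbd9, Dnahc8 and BC023719, all on chromosome 17, against Glo1 for 29 lines, with the 6 lines above the Glo1 gap in red. Along the Glo1 axis the red lines stand apart in every panel by definition. On the vertical axis they lie above all other lines for Btbd9, where IL-4141 is nearest to them, and for Dnahc8. For BC023719 they do not, since IL-1452 (5.15 FPKM) lies above IL-2693 (4.94 FPKM).

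By the rule of naming the 5 genes with the highest r over the 29 line means, the gene most like Glo1 was Btbd9 and the gene most like Btbd9 was BC023719 (r = 0.886, rho = 0.660), followed by Glo1. BC023719 lies 5456 kb away at chr17:36169365-36254066. It was nearly all-or-none, with line means of 4.94 to 6.30 FPKM in the 6 upper lines, 5.15 FPKM in the only mouse of IL-1452 and at most 0.11 FPKM in the remaining 22 lines. Phf1, a Polycomb-associated protein gene elsewhere on chromosome 17, was on both lists, with 2.96 to 6.34 FPKM in the upper mice and 1.79 to 4.19 FPKM in the others, which overlap. The other genes most like Glo1 were Coq6, Mterfd2 and Lin37 (r of 0.651 to 0.682), and those most like Btbd9 were Sh3bp5l and Taz (r of 0.761 and 0.689). Each of these values rests in part on the same 6 lines. Over 11283 genes, 8 correlated with Btbd9 past a permutation adjusted p of 0.05 (0.0709%) and 0 with Glo1, where 1045 had an unadjusted permutation p under 0.05. Of these 8, the MHC class I genes H2-T23 (r = -0.792) and H2-T22 (r = -0.723), also on chromosome 17, and the replication gene Gins1 (r = -0.703) were lower where Btbd9 was higher. With 100000 permutations a gene can pass this adjustment only when several genes reach the smallest p together.

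None of the 10 expressed genes that handle methylglyoxal reached an unadjusted permutation p under 0.05 with Glo1, beside 9.26% of all expressed genes. Hagh, the enzyme that follows GLO1, had 117 to 289.7 FPKM over the mice and an r with Glo1 of 0.294 (permutation adjusted p = 0.615). All 10 tested genes of this list differed among lines by the F test, a count to be read beside 88.5% of all genes. One of them, the aldose reductase gene Akr1b3, was two-level, with line means of 0.29 to 9.71 FPKM. For Btbd9, the BTB adaptor Klhl12 had the highest r of its list (0.469, adjusted p = 0.289), and the iron genes Tfrc, Ireb2 and Slc40a1 were not two-level. Over the lists of all members, 0 of 51 pairs passed an adjusted p of 0.05 and 4 had an unadjusted permutation p under 0.05, namely Klhl12 with Btbd9, Nrd1 and Insr with Ide, and Entpd5 with Entpd4. That share of the lists was near the background, since 24.5% of all expressed genes reached an unadjusted p under 0.05 with Ide, 11.4% with Btbd9 and 5.39% with Entpd4.

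Alad and Hdhd3 varied more evenly, and together. Alad (ENSMUSG00000028393, chr4:62170203-62180952, minus strand) ran from 52.3 to 195 FPKM over the mice, with a median of 96.2 FPKM. The lowest line mean was 59.8 ± 3.16 FPKM in IL-519 (SD, n = 2), and the highest were 182 ± 15.5 FPKM in IL-521 (SD, n = 2) and 195 FPKM in the only mouse of IL-2126, which is 3.26 times the lowest. The widest step, from IL-2693 to IL-521, was 1.09 within-line SDs. No other step passed 1, and Alad was not two-level. The F test gave an adjusted p of 1.08e-05 (edgeR) and the intraclass correlation was 0.564, at the 52.1st percentile. Leaving out replicate 1 leaves only the 5 lines with 3 mice to measure the spread. Without replicate 1 the adjusted p rose to 0.302 and the intraclass correlation was -0.309, while it was 0.674 without IL-1052 and IL-2750.

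Hdhd3 (ENSMUSG00000038422, chr4:62160042-62164501, minus strand), whose start lies 16.5 kb from that of Alad, ran from 4.4 to 29.1 FPKM with a median of 14.5 FPKM. Line means rose from 6.13 ± 2.45 FPKM in IL-1513 (SD, n = 2) to 27.7 ± 1.33 FPKM in IL-1061 (SD, n = 2), a ratio of 4.52. IL-2693 (26.1 FPKM, 1 mouse) and IL-611 (23.9 ± 1.79, SD, n = 3) were next to the top. Neighbours in the order again did not differ beyond their spread, apart from IL-1513, which lay 1.34 within-line SDs under the next line. Such small steps were usual among expressed genes. With at least 3 lines on each side, the widest gap was 0.48 SDs for Hdhd3 and 0.52 SDs for Alad. Its median over all expressed genes was 0.667 SDs. The F test gave an adjusted p of 2.69e-06 (edgeR), which rose to 0.102 without replicate 1, and the intraclass correlation was 0.648, or 0.183 without replicate 1.

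Over the 29 line means Alad and Hdhd3 had an r of 0.639 and a rho of 0.612 (permutation p = 0.00031, adjusted p = 0.00558 over 63896 neighbouring pairs, two-sided). The value was 0.612 without the 2 lines farthest from the median of Alad, and 0.610 to 0.668 when each line was left out in turn. Of all neighbouring pairs within 500 kb, 12.5% were called with a positive and 1.23% with a negative sign, and of the 36 pairs that hold a member 5 and 1 were. The orders were not the same, since IL-1061, highest for Hdhd3, was near the middle for Alad at 104 FPKM. The 2 genes also moved together between line mates. The mice of IL-2156 had 75.5, 135 and 52.3 FPKM of Alad beside 10.4, 25.9 and 11.3 FPKM of Hdhd3. Deviations from line means had an r of 0.810 over 47 mice and of 0.764 over 42 mice without IL-1052 and IL-2750, which is a description with no test.

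**Figure D4:**
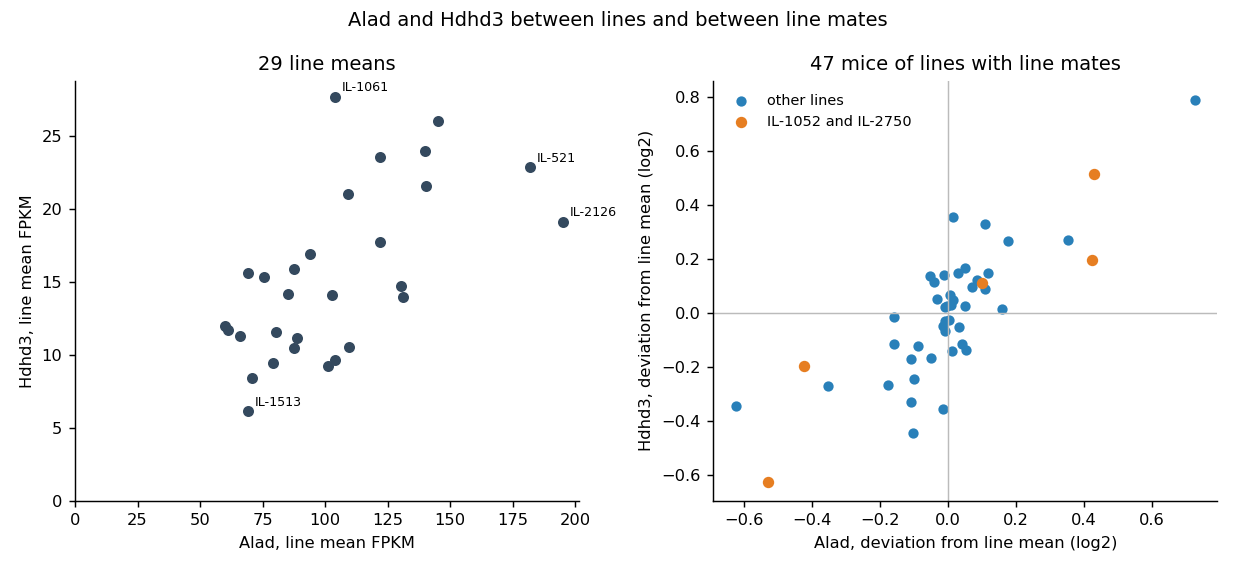
Hdhd3 against Alad as line mean FPKM for 29 lines (left) and as deviations of mice from their line mean on the log2(FPKM + 1) scale (right, 47 mice of lines with line mates). Both panels slope upward, with r of 0.639 and 0.810.

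Of the 13 expressed neighbours of each gene, Alad also correlated with Rgs3 (r = 0.613, adjusted p = 0.00647), a regulator of G-protein signalling, and Hdhd3 with Gm12909 (r = 0.670, adjusted p = 0.00256) and, negatively, with Mup3 (r = -0.572, adjusted p = 0.0170). The nearest expressed genes on either side did not follow. Pole3, which starts 5.15 kb from Alad, had an r of 0.169 with Alad (permutation adjusted p = 0.621) and of -0.182 with Hdhd3 (adjusted p = 0.593). Wdr31 had an r of 0.0668 with Alad (adjusted p = 0.868) and of 0.0235 with Hdhd3 (adjusted p = 0.956). The genes most like Hdhd3 over all genes were Mup1, Gm12909, Alad, Mup-ps4 and Mup10, with r of 0.620 to 0.680, and all lie on chromosome 4. Major urinary protein (Mup) genes are near-identical copies, so their own values are uncertain. Ces1d, a liver carboxylesterase gene on chromosome 8, was most like Alad (r = 0.701, rho = 0.706).

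The r of Alad with the 12 other genes of haem synthesis and breakdown lay between -0.236 and 0.336. Of these, 0 of 12 had an unadjusted permutation p under 0.05, beside 8.76% of all expressed genes, so the list was near the background. By the F test 11 of these 12 genes differed among lines, all but Uros. Alas2, the erythroid form of the first enzyme, was two-level, with line means of 3.51 to 120.5 FPKM. For Hdhd3, 4 related phosphatase genes had r of -0.302 to 0.111.

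Ide and Entpd4 had the narrowest ranges. Ide (ENSMUSG00000056999, chr19:37343233-37412342, minus strand) ran from 11.1 to 19.1 FPKM over the mice, with a median of 14.97 FPKM. Its line means went from 11.6 ± 0.693 FPKM in IL-2146 (SD, n = 2) to 19.0 ± 0.0283 FPKM in IL-2680 (SD, n = 2), a ratio of 1.65, and 0 of 28 steps passed 1 within-line SD. With at least 3 lines on each side the widest gap was 0.61 SDs, beside a median of 0.667 SDs over all expressed genes. Line mates were close, with a within-line SD of 0.09 on the log2 scale, and the intraclass correlation was 0.731, at the 86.1st percentile, or 0.446, at the 28.4th percentile, without replicate 1. The F test gave an adjusted p of 0.000514 (edgeR), but 0.187 and 0.185 without replicates 1 and 2.

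Fgfbp3, a neighbour of Ide, was at most 0.22 FPKM. Of 6 expressed neighbours Exoc6, an exocyst subunit gene 213 kb away, correlated with Ide (r = 0.648, rho = 0.716, adjusted p = 0.00345). March5, Cpeb3 and Hhex, which start nearer, had r of -0.0593, 0.135 and -0.0557 and did not pass. Over all genes 705 of 11283 correlated with Ide (6.25%), so correlation with Ide was frequent across the genome. The genes most like it were Spop, G3bp2, Osbpl11, Fem1c and Usp45, with r of 0.731 to 0.807. Among insulin and protease genes the insulin receptor Insr had the highest r (0.498, adjusted p = 0.0675).

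Entpd4 (ENSMUSG00000022066, chr14:69955208-69985327, plus strand) ran from 8.23 to 20.1 FPKM with a median of 11.1 FPKM. Line means went from 8.82 ± 0.205 FPKM in IL-1061 (SD, n = 2) to 17.7 FPKM in the only mouse of IL-2689, a ratio of 2.01. IL-521 (16.7 ± 2.79, SD, n = 2) and IL-2146 (16.5 ± 2.73, SD, n = 2) came next. The highest single mouse, at 20.1 FPKM, was 1 of 2 of IL-1052, and its line mate had 11.7 FPKM. None of the 28 steps passed 1 within-line SD, with the widest at 0.66, near the median gap of 0.667 SDs over all expressed genes. The F test gave an adjusted p of 3.93e-07 (edgeR) and the intraclass correlation was 0.654, or 0.366 without replicate 1.

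None of the 4 expressed neighbours correlated with Entpd4 past the threshold. Chmp7 (r = 0.403) and R3hcc1 (r = 0.374) had unadjusted permutation p of 0.0312 and 0.0447 and adjusted p of 0.137 and 0.173. The clearest line pattern of this gene was in an isoform. ENSMUST00000064846, which shares the 2 exons after the start exon of the main isoform and ends in an exon of its own, took 0.5 to 14.1% of Entpd4 over the mice. Its share had an intraclass correlation of 0.757, at the 98.6th percentile of isoform-ratio traits. Line means went from 0.5% in IL-2126 (1 mouse) to 10.9 ± 1.22% in IL-219 (SD, n = 2) and 12.2 ± 2.60% in IL-3438 (SD, n = 2). These shares rest on 1.11 to 41.5 estimated fragments a mouse.

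**Figure D5:**
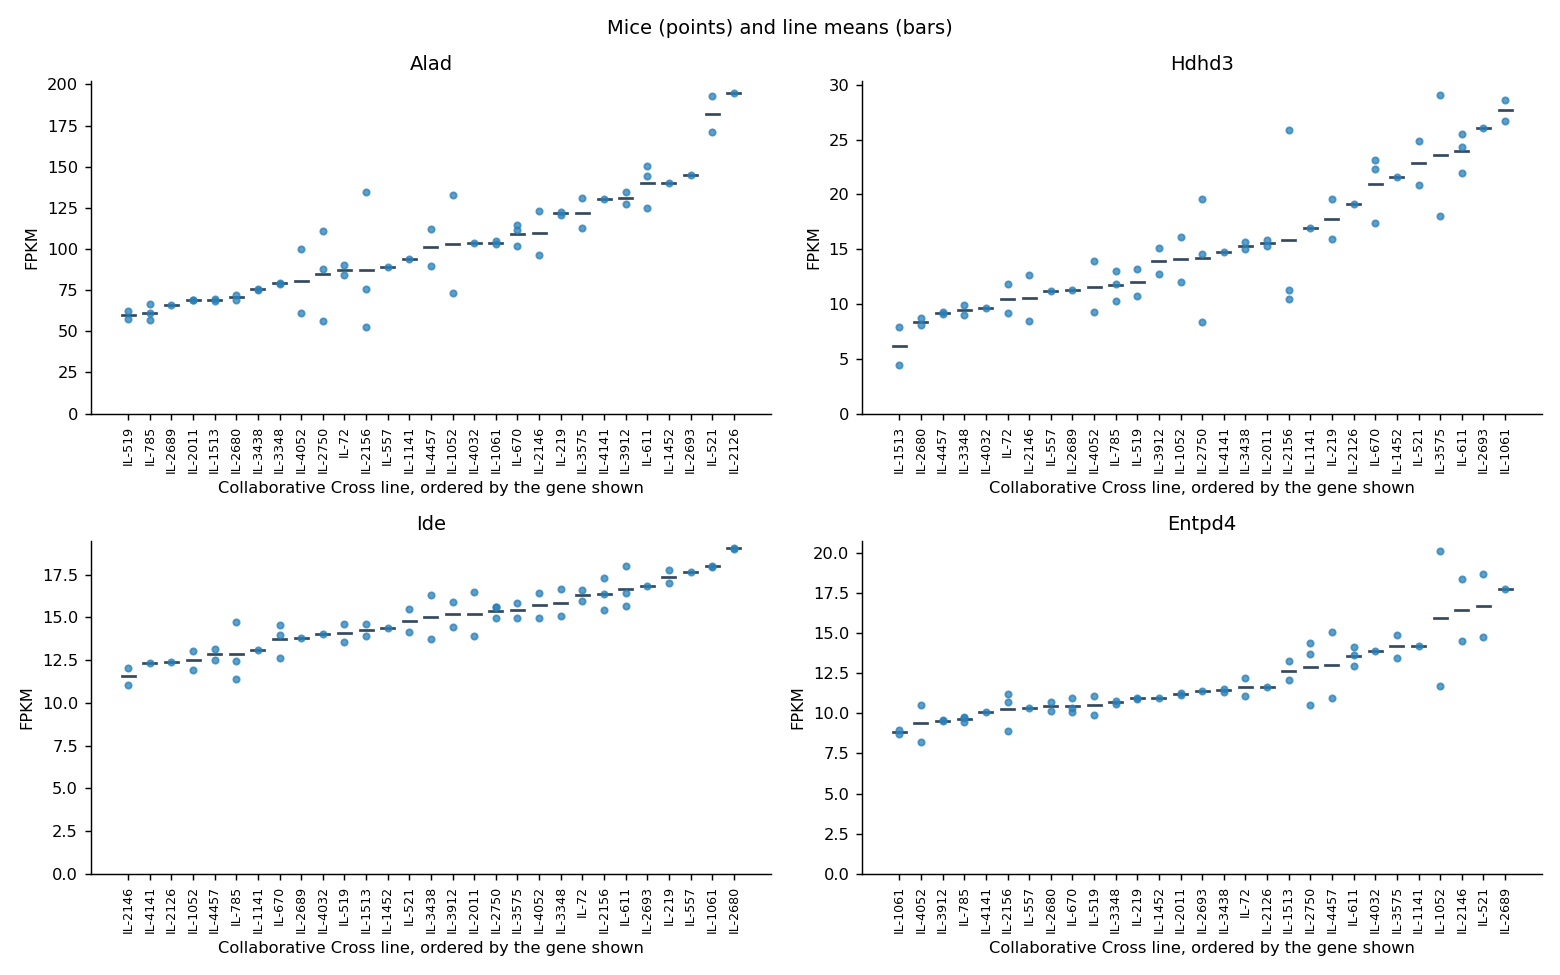
FPKM of Alad, Hdhd3, Ide and Entpd4, with each point a mouse, each bar a line mean, and lines ordered by the gene of the panel from its lowest to its highest. The line means rise in small steps in all 4 panels, with none wider than 1.34 within-line SDs. With at least 3 lines on each side the widest gaps were 0.48 to 0.66 SDs, beside a median of 0.667 SDs over all expressed genes.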

How the data were processed

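Liver mRNA of 55 male mice was sequenced as paired reads of 50 bases from TruSeq Stranded mRNA libraries. The authors mapped reads with Bowtie 2 (2.1.0) and RSEM (1.2.18) to mm9 (NCBI build 37) with Ensembl 67 annotation at default settings, and deposited per gene and isoform the RSEM expected count, TPM, FPKM and, for isoforms, the percent of the gene. RSEM's defaults do not use strand, so fragments of overlapping antisense genes cannot be told apart. Expected counts were estimates, of which 21.8 to 28.8% of non-zero values per library were not whole, and were rounded for testing. Groups are the strain labels. The labels give no replicate numbers or batches, so replicates were numbered in accession order.

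Coordinates came from the Ensembl 65 annotation of NCBIM37, in which 37205 of the 37620 gene IDs were found. Line differences were tested with edgeR 4.0.16 (R 4.3.3, TMM, filterByExpr, quasi-likelihood F test) on 47 mice of 21 lines. Intraclass correlations used van der Waerden scores of FPKM, with the bin width for rounding at 0.5 or at the highest value over 200 if that was larger. Patterns of line levels used log2(FPKM + 1) and neighbours were gene starts within 500 kb. Fold changes and correlations are on the log2(FPKM + 1) scale, which understates changes of low genes. Correlations had 100000 permutations (numba 0.67.0, scipy 1.17.1) with Benjamini-Hochberg adjustment over all neighbouring pairs or all expressed genes. Scripts were tested on simulated data.

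Named genes were the members, protein-coding genes within 500 kb, the pathway lists and the 5 genes most like each member. Dnahc8 and the lines singled out were described after their values were seen. The members and lists were chosen with earlier results of these data known. Alternatives were another normalisation, DESeq2 1.42.0, filters, TPM, CPM, pseudocount 0.1, mclust 6.1.1 mixtures, rank correlation, isoform values for Glo1 and Btbd9 (added after seeing the data), and leaving out replicates or lines. Depth was 20.5 to 34.0 M fragments, and limits from counts cover counting error only.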

Additional observations from a re-analysis of the deposited data

How the results depend on the processing

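No paired analysis was possible because the labels give no replicate numbers and the lines share no mice. The number of genes that differed among lines was 13523 and ranged from 3646 to 12600 when 1 replicate of each line was left out, where fewer lines keep a line mate by construction. Of the 6 expressed members, between 1 and 6 then had an intraclass correlation above the median of all genes, with 1 left without replicate 1. The number of two-level genes was 319, and 653 with at least 2 lines on each side, 180 at a gap of at least 3 within-line SDs, 537 without lines IL-1052 and IL-2750, 3215 by the 2-component mixture, and 336 to 1137 without 1 replicate of each line. Of the 2 two-level members, 0 remained on CPM, and 1 (Btbd9) remained at a gap of at least 3 SDs and by the mixture, and 1 to 2 without 1 replicate. The number of lines above both gaps was 6 without 1 replicate of each line and 5 on CPM. The correlation of Alad and Hdhd3 ranged from 0.595 to 0.701 without 1 replicate. Neighbouring pairs of members called were 6 of 36, and 5 to 7 without 1 replicate. Pathway pairs called were 0, and 0 to 1 without 1 replicate. For the changes with CPM, the mixture and the lines left out, the cause was not tested. No tested result changed direction, but the intraclass correlation of Alad changed sign without replicate 1 (-0.309), as did those of the isoform shares of Alad without replicate 1 (-0.471) and of Btbd9 (-0.115) and Ide (-0.0646) without replicate 2. Lines with 1 mouse add no estimate of spread, and low counts limit Dnahc8, Glp1r and the rare isoforms.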

Other observations

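Among the genes of the pathway lists, a pair were two-level besides the members. Alas2, the erythroid form of 5-aminolevulinate synthase, had a gap of 2.86 within-line SDs and an adjusted p of 9.04e-09 among lines (edgeR), and Akr1b3 a gap of 2.39 SDs and an adjusted p of 4.28e-05. The liver form Alas1 ranged from 8.91 to 593 FPKM over the mice without being two-level. Summed red blood cell markers, a list that holds Alas2, ran from 446 to 4528 FPKM, and their part in the Alas2 levels was not tested. Near Alad and Hdhd3, the urinary protein gene Mup20 was two-level as well, with a gap of 3.30 SDs and 3.21 to 8231 FPKM over the mice. Near Glp1r, Tff3, a secreted trefoil peptide gene, ran from 0 to 249.6 FPKM over the mice with an intraclass correlation of 0.777.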
